A study of Homo sapiens with 12 samples.

Results

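Transcripts of the proteasome were measured in HT1080 cells, an established human fibrosarcoma line, and were chosen by name. They comprised all probes whose gene symbol starts with PSMA, PSMB, PSMC, PSMD or PSME, 71 of the 48797 probes on the array and 44 of its 24946 symbols. Of the 44 symbols, 42 name subunits, assembly chaperones or activators of the proteasome. The other 2, PSMC3IP, a factor of homologous recombination, and PSMAL, match the letters but are no proteasome subunits. All cells had been stably transduced by retrovirus with epitope-tagged ING2, a chromatin protein that binds the lipid PtdIns(5)P. The study describes the cells' own ING2 protein as reduced, with the tagged form making up most of the ING2 present. The tagged protein was wild type (ING2-WT) or a mutant whose basic residues were exchanged so that it no longer binds the lipid (ING2-6K/Rmt). Each line received the solvent DMSO or 100 uM etoposide, a topoisomerase II poison that breaks DNA, for 16 h per the labels, though the study's text gives another time. This made 4 groups of 3 Illumina BeadArrays, numbered 1 to 3 in each group. The labels do not tie the arrays of a group to separate cultures, while a legend of the study calls the replicates of its expression data biological. The p-values reflect the scatter among these arrays, whatever its source.

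The proteasome is the protease that degrades proteins marked with ubiquitin. Its barrel, the 20S core, is built from rings of alpha subunits (PSMA genes) and beta subunits (PSMB genes), and PSMB5, PSMB6 and PSMB7 carry the active sites. The 19S regulatory particle caps the barrel. Its ATPases (PSMC genes) unfold the substrate, and its other subunits (most PSMD genes) include those that bind ubiquitin and remove it. Interferon induces PSMB8, PSMB9 and PSMB10, which replace PSMB5, PSMB6 and PSMB7 in the immunoproteasome, and the activator formed by PSME1 and PSME2. This form of the proteasome is known for making peptides for display on HLA class I molecules. When proteasome activity falls, the transcription factor NFE2L1 is known to raise the constitutive subunit genes together.

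The 42 genes comprised 14 of the constitutive 20S core, 17 of the 19S particle, the 5 immunoproteasome genes, 3 chaperones of 19S assembly (PSMD5, PSMD9 and PSMD10), 2 other activators (PSME3 and PSME4) and PSMA8, a testis-restricted alpha subunit. They had 67 probes, with more than 1 probe for 16 genes and a single probe for 26. A gene was tested if a probe reached an intensity of 64 on at least 3 of the 12 arrays, and 40 of the 42 did. Intensity here is the background-subtracted and quantile-normalised brightness of a probe on a linear scale. The exceptions were PSMA7, whose only probe lay between 2.1 and 66.9, and PSMA8, between -15.2 and 16.9. The probe with the highest mean stood for its gene. Probes differ in brightness per transcript, so levels are compared only within a probe, between groups.

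Promoters of 37 of the 42 genes were matched by symbol in RefSeq (GRCh38.p14), each as the 250 bases before and the 50 from the start of transcription. Of the 37 genes, 6 had several listed starts, and a gene counted if any of them held the letters searched. The shares over all genes are shares of promoters and not of genes. The interferon response element, searched on both strands as GAAA, any 2 bases and GAAA again, stood in 3.57% of 35116 promoters of all genes. Among the proteasome genes it stood in 4 of 5 immunoproteasome genes (PSMB8, PSMB10, PSME1 and PSME2), in 2 of 10 core genes with a listed promoter (PSMA4 and PSMB4), and in 0 of 16 regulatory genes. The promoters of the 4 immunoproteasome genes are shown because the comparisons set these genes beside PSMB9, and the match is in capitals. It was the same run of letters in each, GAAAGCGAAA or its reverse complement TTTCGCTTTC. PSMB8 has another listed start, not shown, without a match.
PSMB8, chr6:32843998-32844297, minus strand: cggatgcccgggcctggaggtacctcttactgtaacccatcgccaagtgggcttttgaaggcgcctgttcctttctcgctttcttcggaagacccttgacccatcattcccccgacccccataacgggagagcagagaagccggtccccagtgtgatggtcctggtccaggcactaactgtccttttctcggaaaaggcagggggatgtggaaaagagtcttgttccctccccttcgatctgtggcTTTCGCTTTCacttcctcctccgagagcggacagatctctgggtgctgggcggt
PSMB10, chr16:67936801-67937100, minus strand: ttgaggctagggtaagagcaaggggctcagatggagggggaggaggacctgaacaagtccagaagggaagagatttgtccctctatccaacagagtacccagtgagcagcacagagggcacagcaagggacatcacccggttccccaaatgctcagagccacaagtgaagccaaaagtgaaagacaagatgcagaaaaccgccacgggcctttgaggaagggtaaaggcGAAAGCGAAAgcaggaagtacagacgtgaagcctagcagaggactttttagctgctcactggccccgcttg
PSME1, chr14:24135944-24136243, plus strand: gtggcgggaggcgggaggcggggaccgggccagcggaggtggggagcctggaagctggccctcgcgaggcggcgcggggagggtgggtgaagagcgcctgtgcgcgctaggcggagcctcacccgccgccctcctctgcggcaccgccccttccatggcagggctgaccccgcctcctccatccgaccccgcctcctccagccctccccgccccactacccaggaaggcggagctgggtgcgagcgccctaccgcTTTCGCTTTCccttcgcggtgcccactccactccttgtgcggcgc
PSME2, chr14:24146561-24146860, minus strand: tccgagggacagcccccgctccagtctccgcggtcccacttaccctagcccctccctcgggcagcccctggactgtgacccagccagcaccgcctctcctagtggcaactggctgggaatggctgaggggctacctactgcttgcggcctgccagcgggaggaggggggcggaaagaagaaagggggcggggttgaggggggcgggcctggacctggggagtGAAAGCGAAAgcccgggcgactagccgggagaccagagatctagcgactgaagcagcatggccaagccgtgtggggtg

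The promoter of PSMB9 had no match to this element in the window and is shown beside that of PSMB5, the core gene on which the comparisons turn most often. Capitals mark CCAAT, the box that the factor NF-Y binds, which stood in 34.6% of all promoters on either strand, in 7 of 10 core genes, 8 of 16 regulatory genes and 1 of 5 immunoproteasome genes. PSMB5 likewise has a second listed start, not shown, without CCAAT. TGACNNNGC, the core of the antioxidant response element through which NFE2L1 acts, stood in 13.3% of all promoters, in 2 of 10 core, 5 of 16 regulatory and 3 of 5 immunoproteasome genes. TTCNNNGAA, the site that STAT factors bind, stood in 7.66% of all promoters, in 2 of 10 core, 3 of 16 regulatory and 1 of 5 immunoproteasome genes (PSMB8). A match is a description of letters and not evidence of binding.
PSMB9, chr6:32853942-32854241, plus strand: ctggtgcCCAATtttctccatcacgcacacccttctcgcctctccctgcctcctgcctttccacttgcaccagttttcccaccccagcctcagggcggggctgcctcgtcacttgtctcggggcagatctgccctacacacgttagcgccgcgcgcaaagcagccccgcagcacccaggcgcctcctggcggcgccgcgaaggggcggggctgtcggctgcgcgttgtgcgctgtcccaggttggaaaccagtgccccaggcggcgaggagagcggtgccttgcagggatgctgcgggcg
PSMB5, chr14:23035171-23035470, minus strand: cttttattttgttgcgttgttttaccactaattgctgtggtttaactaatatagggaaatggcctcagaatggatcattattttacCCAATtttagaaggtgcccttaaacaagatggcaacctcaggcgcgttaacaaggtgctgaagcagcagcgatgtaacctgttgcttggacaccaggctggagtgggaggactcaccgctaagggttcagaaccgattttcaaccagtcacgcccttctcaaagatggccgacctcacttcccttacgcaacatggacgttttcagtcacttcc

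Other genes ran in opposite directions on the arrays of the 2 lines, and the groups are kept here as labelled. CDKN1A, a p53 target that DNA damage is known to raise, was at 3637 ± 657 (SD, n = 3) with DMSO and 15602 ± 1011 with etoposide on the ING2-WT arrays, but at 14256 ± 2473 with DMSO and 4794 ± 1513 with etoposide on the arrays labelled ING2-6K/Rmt. TOP2A, a gene of proliferating cells, moved against CDKN1A in each line. Its log2 change with etoposide was -4.43 on the ING2-WT arrays and 4.79 on those labelled ING2-6K/Rmt. ING2 itself was at 11846 and 8853 on the arrays labelled ING2-6K/Rmt etoposide replicates 1 and 2, and between 140.0 and 649.8 on the other 10. The arrays numbered 3 stood apart as well: the median deviation of the proteasome genes from their group mean was -0.40 (WT DMSO), -0.08 (WT etoposide), -0.42 (6K/Rmt DMSO) and -0.18 (6K/Rmt etoposide) on the log2 scale, and that of the other 8 arrays was above 0. The residual SD had a median of 0.39 over the 40 proteasome genes and 0.55 over all 11443 genes tested. Of 8 mesenchymal markers, 7 reached 64 on some array, with VIM between 7977 and 24318. Of 8 markers of blood cells, which express immunoproteasome genes, 3 did (CD14, CD74 and HLA-DRA), and the defining marker PTPRC was at most at 56.7. Summed, the blood markers lay between 141 and 206 (WT DMSO), 226 and 524 (WT etoposide), 202 and 271 (6K/Rmt DMSO), and 102 and 241 (6K/Rmt etoposide). Of 6 epithelial markers, 3 reached 64, and the highest value was 147.

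In none of 5 comparisons did a proteasome gene pass the test (limma over all 12 arrays, Benjamini-Hochberg over 11443 genes, adjusted p under 0.05). The count was 0 of 40 for etoposide against DMSO in ING2-WT cells, where 4.89% of all genes passed (1.93% higher and 2.95% lower), and 0 of 40 in ING2-6K/Rmt cells, where 1.63% did (1.48% and 0.149%). It was 0 of 40 for the difference of these effects, where 6.49% of all genes passed (3.85% and 2.65%). For 6K/Rmt against WT it was 0 of 40 in DMSO, where 2.48% of all genes passed (0.306% and 2.18%), and 0 of 40 in etoposide, where 5.51% did (3.14% and 2.37%). The comparisons share groups of arrays and are not independent.

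At an unadjusted p under 0.05, 1 proteasome gene was higher and 1 lower with etoposide in ING2-WT cells, where 9.38% and 9.84% of all genes were. In 6K/Rmt cells 0 and 0 were, against 5.33% and 4.16% of all genes. The difference of effects gave 0 and 2, against 10.8% and 11.2%. Between the lines the counts were 0 and 0 in DMSO, against 4.36% and 6.6%, and 1 and 4 in etoposide, against 12.2% and 12.2%. The median SE of a log2 change was 0.34 over the 40 genes, and the 95% interval reached 0.75 to either side of the estimate at the median. For the ING2-WT etoposide effect this interval lay within 1 log2 unit of 0 for 22 of 40 genes, and for 6K/Rmt against WT in etoposide for 10 of 40.

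With etoposide in ING2-WT cells, the core genes lay close to 0, with a median log2 change of 0.08 and a range of -0.19 to 0.49 over 13 genes, against a median of -0.00 over all genes. For 9 of the 13 the 95% interval lay within 1 log2 unit of 0. The regulatory genes had a median of 0.06 and a wider range, -1.29 to 0.84. The core median depended on the scaling, from 0.02 to 0.24 over 3 other scalings. Of the immunoproteasome genes 3 of 5 lay above 0 and 2 below, from -1.36 to 0.58.

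PSMD4, a ubiquitin receptor of the 19S particle, had the highest value of the 40 genes in this comparison. Its intensity was 1564, 1405 and 917 with DMSO and 2214, 2585 and 2019.6 with etoposide, so that each etoposide array was above each DMSO array. The log2 change was 0.84 (SE 0.30, adjusted p = 0.145, limma). Over all 3 probes of PSMD4 that passed the filter, the log2 change was between 0.84 and 0.93. Etoposide arrays lay above all DMSO arrays for 5 of 40 proteasome genes (PSMB5, PSME1, PSMC3, PSMC5 and PSMD4), or 12.5%, where 13.3% of all genes had this. They lay below all DMSO arrays for 1 of 40, PSMB9, where 10.3% of all genes had this.

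PSMB9, an interferon-induced active-site subunit that takes the place of PSMB6, was measured at 158, 106 and 142 with DMSO and at 71.2, 71.3 and 27.4 with etoposide. The log2 change was -1.36 (95% interval -2.50 to -0.22, adjusted p = 0.176, limma). These are dim values, close to the intensity of 64 that the filter used. TAP1, a peptide transporter for HLA class I whose gene is the neighbour of PSMB9, was at 1244, 1081 and 5479 with DMSO and at 2867, 2752 and 6574 with etoposide, a log2 change of 0.94 (adjusted p = 0.478, limma). The array numbered 3 was the highest for TAP1 in either group.

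Of the other immunoproteasome genes, PSME1 had 3029, 1935 and 2421 with DMSO and 3305, 3355 and 4293 with etoposide, without overlap (log2 change 0.58, adjusted p = 0.322, limma). The log2 change was 0.32 for PSMB10, 0.22 for PSME2 and -0.34 for PSMB8, with adjusted p of 0.656, 0.778 and 0.728 (limma). The highest blood marker sum was also found in the ING2-WT etoposide group, whose lowest array overlapped the 6K/Rmt groups, and the part of these markers in the values was not tested.

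**Figure D1:**
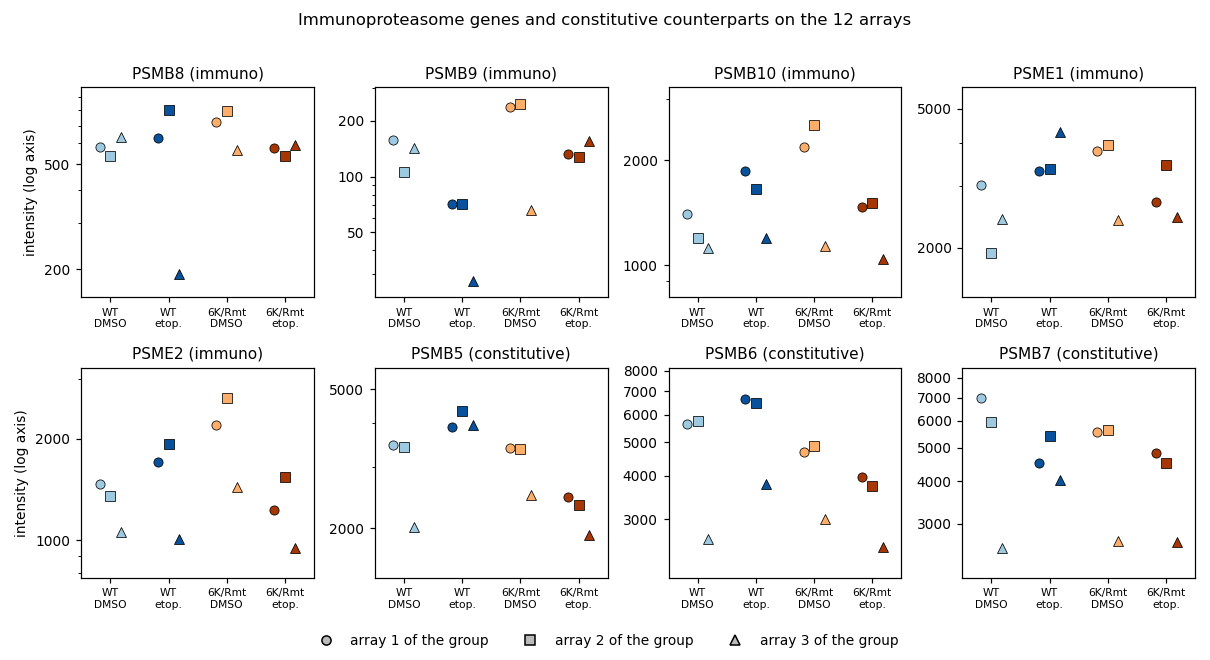
Intensity (log axis) of the main probe of the 5 immunoproteasome genes and of their constitutive counterparts PSMB5, PSMB6 and PSMB7 on each of the 12 arrays, by labelled group and array number. For PSMB9 the 3 ING2-WT etoposide arrays lie at 71.3 or lower, as does 1 of the other 9 arrays, and the arrays numbered 3 are the lowest of their group for PSMB6 and PSMB7.

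Among the constitutive counterparts, PSMB5, the chymotrypsin-like active site, was at 3471, 3422 and 2016 with DMSO and at 3904, 4336 and 3951 with etoposide, without overlap. The log2 change was 0.49 (adjusted p = 0.382, limma). It was 0.31 for PSMB6 and -0.04 for PSMB7, with adjusted p of 0.718 and 0.972 (limma). The other activators lay near 0, with -0.17 for PSME3, a nuclear activator, and 0.10 for PSME4, an activator known from histone degradation. The lowest values beside PSMB9 were those of PSMC4 (-1.29) and PSMD11 (-0.75), which rested on a low value on 1 array, given with the probes.

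With etoposide on the arrays labelled ING2-6K/Rmt, most proteasome genes lay slightly below 0: 35 of 40, with a median log2 change of -0.22. Over all genes, 5927 of 11443 lay below 0, with a median of -0.03. The medians were -0.19 for the core, -0.19 for the regulatory genes and -0.28 for the immunoproteasome genes, with 12 of 13, 13 of 17 and 5 of 5 below 0. Over 3 other scalings the median of the 40 genes was between -0.12 and -0.07, that of the core between -0.12 and -0.07, that of the regulatory genes between -0.08 and -0.01 and that of the immunoproteasome genes between -0.19 and -0.15, against between 0.03 and 0.08 over all genes. Genes share arrays and are not replicates, so these counts carry no test. Etoposide arrays lay below all DMSO arrays for 3 of 40 genes (PSMB5, PSMC4 and PSMC6), where 9.67% of all genes did, and above for 0 of 40, where 9.55% did.

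PSME2, the partner of PSME1 in the interferon-induced activator, had the lowest value. It was at 2196, 2642 and 1434 with DMSO and at 1227, 1542 and 951 with etoposide, a log2 change of -0.74 (95% interval -1.49 to 0.02, adjusted p = 0.546, limma). The groups overlap, with replicate 3 of the DMSO group below replicate 2 of the etoposide group. PSMC4 was at -0.61 and PSMC6, likewise a 19S ATPase, at -0.56, with 2272, 2105 and 1893 in DMSO and 1507, 1370.3 and 1374 in etoposide (adjusted p = 0.597, limma). The log2 change was -0.48 for PSMB10, -0.28 for PSMB8, -0.21 for PSME1 and -0.18 for PSMB9. PSMB5 was at 3384, 3367 and 2484 with DMSO and at 2458, 2327 and 1914 with etoposide, a log2 change of -0.46 (adjusted p = 0.657, limma). PSMB6 and PSMB7 were at -0.29 and -0.18, and PSME3 and PSME4 at -0.41 and -0.06. The highest values were those of PSMD12 (0.72), PSMD2 (0.10) and PSMA1 (0.08).

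The difference of the etoposide effects, 6K/Rmt minus WT, asks whether a gene responded unequally in the 2 lines. It takes the groups as labelled, and CDKN1A and TOP2A each ran in opposite directions on the arrays of the 2 lines. The median difference was -0.30 for the core (12 of 13 below 0), -0.15 for the regulatory genes, -0.79 for the immunoproteasome genes and 0.01 over all genes. Over 3 other scalings the median was between -0.24 and -0.13 for the core, -0.08 and 0.01 for the regulatory genes and -0.65 and -0.55 for the immunoproteasome genes. PSMD4 had the lowest difference, -1.17 (95% interval -2.10 to -0.24, adjusted p = 0.133, limma), followed by PSME2 at -0.96 (adjusted p = 0.281) and PSMB5 at -0.95 (adjusted p = 0.199). PSMB5 lay above all DMSO arrays in WT cells and below all of them in 6K/Rmt cells, as 8.16% of all genes did in one order or the other. PSMB10 was at -0.80, PSME1 at -0.79 and PSMB8 at 0.06, and PSMB9 on the opposite side at 1.18 (adjusted p = 0.387, limma). PSMB6 was at -0.60, PSMB7 at -0.14, PSME3 at -0.24 and PSME4 at -0.16. PSMD12 (1.04) and PSMD11 (0.82), both subunits of the 19S lid, had the next highest values after PSMB9. The 95% interval reached 1.05 to either side at the median, and 4 of 40 intervals lay within 1 log2 unit of 0.

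**Figure D2:**
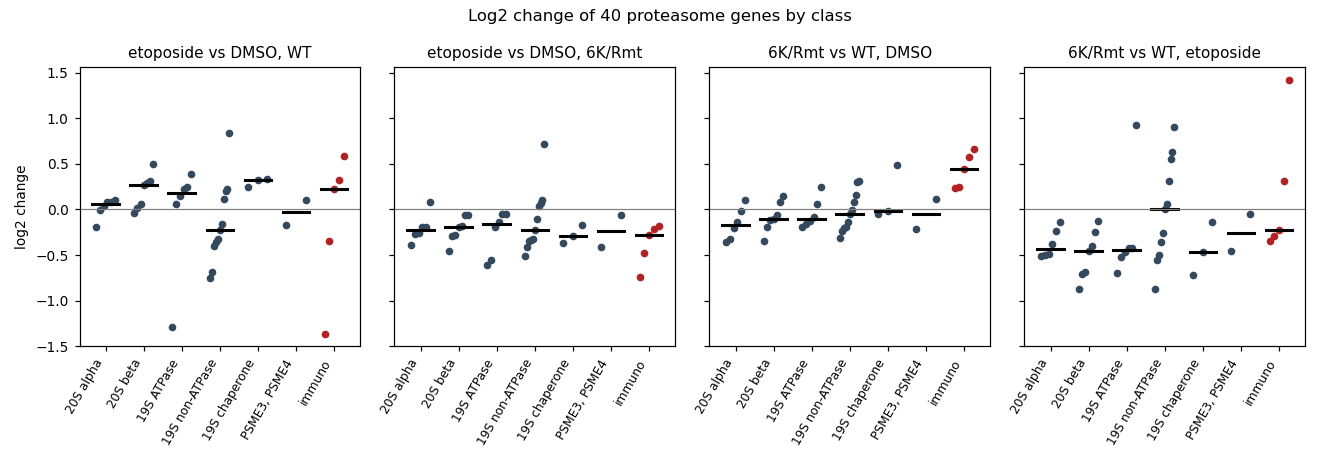
Log2 change (vertical axis) of the 40 tested proteasome genes, 1 point a gene, by class in 4 comparisons, with a bar at the median of each class and immunoproteasome genes in red. All 5 immunoproteasome genes lie above 0 for 6K/Rmt against WT in DMSO, and all 13 core genes lie below 0 for 6K/Rmt against WT in etoposide.

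In DMSO, the 5 immunoproteasome genes all lay higher on the arrays labelled 6K/Rmt than on those of ING2-WT, with a median log2 difference of 0.44 and a range of 0.23 to 0.66, and none passed the test. The median was -0.12 for the core, -0.09 for the regulatory genes and 0.04 over all genes. PSME2 had the highest difference of the 40 genes at 0.66 (95% interval -0.10 to 1.42, adjusted p = 0.564, limma). It was at 1468, 1348 and 1060.1 on the WT arrays and at 2196, 2642 and 1434 on those labelled 6K/Rmt. PSMB10, the interferon-induced counterpart of PSMB7, was at 1402, 1196 and 1124 on the WT arrays and at 2185, 2519 and 1137 on the others, a difference of 0.58 (adjusted p = 0.641, limma). PSME1 was at 3781, 3929.5 and 2401 on the 6K/Rmt arrays, a difference of 0.44. PSMB8, the counterpart of PSMB5, was at 579, 537 and 632 against 725, 796 and 566, a difference of 0.24. PSMB9 was at 236, 248 and 65.7 on the 6K/Rmt arrays, a difference of 0.23.

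In each of these 5 genes the arrays labelled 6K/Rmt DMSO replicates 1 and 2 were above all 3 WT arrays, and replicate 3 was not. No proteasome gene had groups without overlap in this comparison, 0 of 40 in either direction, where 8.5% of all genes were higher and 9.4% lower in this way. PSMD9, a chaperone of 19S assembly, followed PSMB10 at 0.48. The lowest differences were those of PSMA1 (-0.36), PSMB3 (-0.35) and PSMA3 (-0.32), all core subunits. PSMB5, PSMB6 and PSMB7 were at 0.08, -0.11 and -0.12, and PSME3 and PSME4 at -0.21 and 0.11.

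In etoposide, all 13 core genes lay lower on the arrays labelled 6K/Rmt than on those of ING2-WT, with a median log2 difference of -0.46 and a range of -0.87 to -0.13. The regulatory genes had a median of -0.36 with 10 of 17 below 0, the immunoproteasome genes a median of -0.22 with 3 of 5 below 0, and all genes a median of 0.03. The immunoproteasome median was between -0.15 and -0.10 over 3 other scalings, and the core median between -0.45 and -0.35. Some markers of cell types differed in this comparison too. The 1 blood marker tested, CD14, was lower on the 6K/Rmt arrays (-2.53, adjusted p = 0.0184, limma). Of 2 epithelial markers tested, CDH1 was lower (-2.40, adjusted p = 0.034, limma) and the other lay above 0 (0.98) without passing. These were dim, with CD14 at most at 187.8 and CDH1 at most at 147.3 on any array. All 7 tested mesenchymal markers lay above 0 (median 0.96) without passing the test. The part of these markers in the values of the proteasome genes was not tested. Lower without overlap were 15 of 40 proteasome genes, or 37.5%, where 19.2% of all genes were. They were 5 of 13 core genes (PSMA1, PSMA3, PSMB2, PSMB4 and PSMB5), 7 of 17 regulatory genes (PSMC1, PSMC2, PSMC3, PSMC5, PSMC6, PSMD4 and PSMD6), the chaperones PSMD5 and PSMD10, and PSME3. Higher without overlap were 2 of 40, PSMB9 and PSMD12, where 14.2% of all genes were.

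With the main probe of each gene, PSMB5 had the smallest adjusted p of any proteasome gene in the 5 comparisons. It was at 3904, 4336 and 3951 on the WT arrays and at 2458, 2327 and 1914 on those labelled 6K/Rmt, a difference of -0.87 (SE 0.29, adjusted p = 0.0993, limma). In a limma fit over all 14824 probes, other probes had a smaller adjusted p than PSMB5 (0.113), and none of the 3 passed. They were a dimmer probe of PSMC6 at -1.11 (adjusted p = 0.056) and another of PSMD4 at -0.99 (adjusted p = 0.0935). The main probe of PSMC6 was at -0.70. PSMD4 was at 1408, 1386 and 973 on the 6K/Rmt arrays, all below the WT arrays, a difference of -0.87 (adjusted p = 0.111, limma). PSMD10, an assembly chaperone also known as gankyrin, was at -0.72 (adjusted p = 0.221, limma), PSMB6 at -0.71 and PSMB7 at -0.25. PSMB9 lay on the other side, at 132, 128 and 156 on the 6K/Rmt arrays and 71.2, 71.3 and 27.4 on the WT arrays, a difference of 1.42 (95% interval 0.27 to 2.56, adjusted p = 0.130, limma). The other interferon-induced genes were PSMB8 at 0.31, PSMB10 at -0.22, PSME2 at -0.29 and PSME1 at -0.35. PSMC4 (0.92) and PSMD12 (0.91) followed PSMB9, PSME3 was at -0.46 and PSME4 at -0.05.

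**Figure D3:**
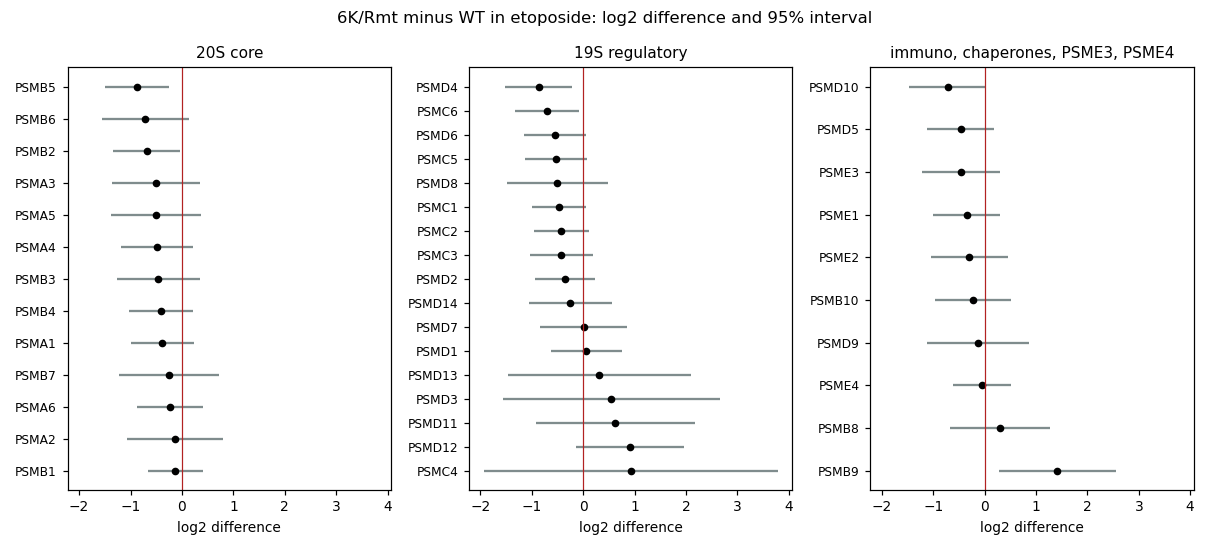
Log2 difference, 6K/Rmt minus WT in etoposide (horizontal axis), with its 95% interval for each of the 40 tested proteasome genes. All 13 core genes lie left of 0, and PSMB9 stands at the right end with 1.42.

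Probes of one gene disagreed on 1 array. On ING2-WT etoposide replicate 3, 13 of the 60 proteasome probes that passed the filter, 21.7%, were at least 4-fold below both other arrays of the group, as were 12.6% of all probes. On the other 11 arrays this held for 0 or 1 of the 60. PSMC4, a 19S ATPase, was low there with all 3 probes, of which the brightest read 2401, 2164 and 25.5 on the ING2-WT etoposide arrays. PSMC1, likewise a 19S ATPase, had a probe at 5166, 5948 and 128 on those arrays and another at 7082, 7379 and 8573. PSMA1, an alpha subunit, had a probe at 1162, 1220.5 and 7.3 and another at 6032, 5237 and 5394. A low value on this array thus belonged to some probes of PSMC1 and PSMA1 and not to others.

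Other main probes low on the same array were those of the 19S subunits PSMD3 (392, 426 and 12.6 on the WT etoposide arrays), PSMD11 (242, 233 and 27.6) and PSMD13 (384, 603 and 34.6). The main probe of PSMB8 read 627, 799 and 192 on the WT etoposide arrays, lowest there but not 4-fold below both others, whereas a dimmer probe of PSMB8 was. Of 16 genes with more than 1 probe, probes differed in the sign of the ING2-WT etoposide effect for 8 (PSMA1, PSMA3, PSMA4, PSMA6, PSMC1, PSMD6, PSMD10 and PSMD12). They differed for 3 in 6K/Rmt cells (PSMA1, PSMD12 and PSME1), for the same 4 genes in the difference of effects and between the lines in etoposide (PSMA1, PSMC1, PSMD10 and PSMD12), and for 3 between the lines in DMSO (PSMB8, PSMD6 and PSMD10). The probes of PSMD12 also parted on other arrays: its main probe read 7620.0, 8832 and 15642 on the WT DMSO arrays, where the array numbered 3 was highest, and the other probe 1575, 1574 and 583, where it was lowest. The log2 change of PSMD12 in 6K/Rmt cells was 0.72 with the main probe and -0.32 with the other.

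**Figure D4:**
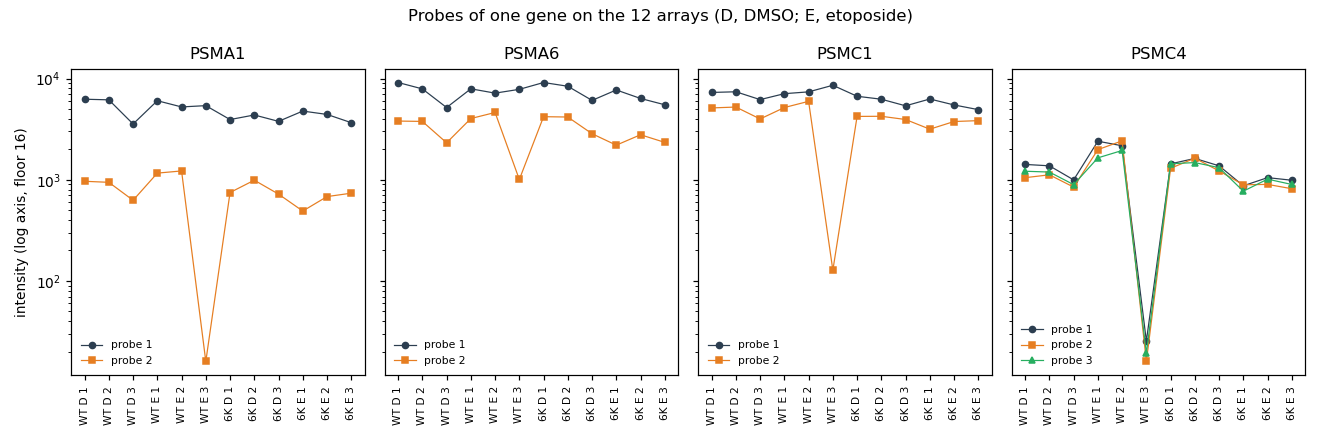
Intensity (log axis, values under 16 drawn at 16) of each probe of PSMA1, PSMA6, PSMC1 and PSMC4 that passed the filter, on the 12 arrays in the order of their groups. On WT etoposide replicate 3, 1 probe each of PSMA1, PSMA6 and PSMC1 drops below the others of its group, and all 3 probes of PSMC4 do.

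Without the 4 arrays numbered 3, which leaves 2 arrays a group, some proteasome genes passed the test, along with many other genes. With etoposide, 7 of 40 passed in ING2-WT cells (3 higher and 4 lower, where 28.8% of all genes passed, 13.8% higher and 15% lower) and 14 of 40 in 6K/Rmt cells (1 and 13, against 35%, 17.4% and 17.5%). The difference of effects gave 7 of 40 (0 and 7, against 35.4%, 17.1% and 18.3%). For 6K/Rmt against WT, 5 of 40 passed in DMSO (3 and 2, against 23.2%, 11.6% and 11.6%) and 15 of 40 in etoposide (1 and 14, against 39.7%, 19.3% and 20.5%). The share of all proteasome genes that passed in either direction was 17.5%, 35%, 17.5%, 12.5% and 37.5% in this order, near or below that of all genes. For lower alone, this share exceeded that of all genes in 6K/Rmt cells (13 of 40) and between the lines in etoposide (14 of 40). Genes share arrays, so these counts carry no test.

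In WT cells PSMC4 (0.71), PSMD3 (0.67) and PSMD4 (0.69) rose with etoposide without these arrays. PSMA2 (-0.72), PSMB9 (-0.86), PSMD14 (-0.62), the deubiquitinase of the 19S lid, and PSME3 (-0.62) fell, and the adjusted p of the 7 genes was between 0.0181 and 0.036 (limma). Between the lines in etoposide, lower on the 6K/Rmt arrays were 5 core genes (PSMA4, PSMB2, PSMB3, PSMB5 and PSMB6), 8 regulatory genes and PSMD10, and PSMB9 was higher (0.87, adjusted p = 0.0166, limma). PSMC4 had the lowest difference there, -1.25, where it was 0.92 with all arrays.

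Of the immunoproteasome genes, 3 of 5 passed in 3 of these comparisons, where 11.6% (DMSO, higher), 17.5% (6K/Rmt etoposide effect, lower) and 18.3% (difference of effects, lower) of all genes passed in the same direction. In DMSO, PSMB9 (0.91, adjusted p = 0.0228), PSMB10 (0.86, adjusted p = 0.0116) and PSME2 (0.78, adjusted p = 0.0254) were higher on the 6K/Rmt arrays numbered 1 and 2 (limma). With etoposide in 6K/Rmt cells the same 3 genes were lower, with -0.89 for PSMB9, -0.81 for PSME2 and -0.66 for PSMB10. The difference of effects passed for PSME2 (-1.17), PSMB10 (-1.09) and PSMB8 (-0.80), with adjusted p of 0.0147, 0.0117 and 0.0384 (limma). By the labels, PSMB9 was lower with etoposide in both lines, whereas TAP1 was higher in WT cells (1.28, adjusted p = 0.00224, limma) and at -0.02 in 6K/Rmt cells (adjusted p = 0.906, limma). CDKN1A and TOP2A each ran in opposite directions on the arrays of the 2 lines, as given above.

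**Figure D5:**
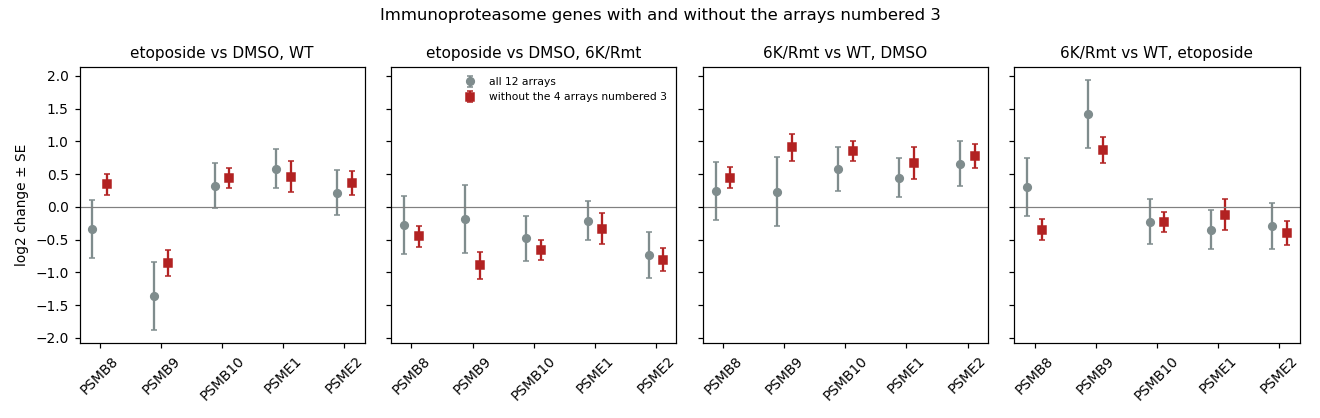
Log2 change with its SE for the 5 immunoproteasome genes in 4 comparisons, with all 12 arrays (grey) and without the 4 arrays numbered 3 (red). For PSMB9 with etoposide in WT cells the values are -1.36 and -0.86.

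The study lists promoters bound by ING2 after etoposide, and those of 4 proteasome genes, PSMB3, PSMB5, PSMC5 and PSMD9, are among them. None of the 4 passed the test in any comparison over all arrays. In WT cells with etoposide their log2 change was 0.06, 0.49, 0.39 and 0.32, and in 6K/Rmt cells -0.06, -0.46, -0.19 and -0.29. PSMB3, a beta subunit without an active site, was at 5255, 5146 and 2657 with DMSO and 5212, 5394 and 2867 with etoposide on the WT arrays, with the array numbered 3 low in both. PSMC5, a 19S ATPase, was at 4339.6, 4128 and 2958 with DMSO and 4678, 4629.9 and 5531 with etoposide, without overlap. PSMD9 was at 148, 196 and 71.4 and 119, 148 and 229, with overlap. No binding was measured on these arrays.

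Among genes that work with the proteasome, none passed in any of the 5 comparisons over all arrays in 5 lists: 13 tested genes of assembly and partners, 8 of ubiquitin shuttles and unfoldase, 6 of ubiquitin and its activating enzymes, 6 of the transcription of proteasome genes and 14 of antigen processing. Their median log2 changes in ING2-WT cells with etoposide were -0.17, -0.00, 0.07, -0.15 and 0.09 in this order. Of 11 interferon signalling genes, ISG15 (2.62, adjusted p = 0.0116, limma) and IRF9 (1.78, adjusted p = 0.0171, limma) rose with etoposide in WT cells, 2 of 11 where 1.93% of all genes rose, and 0 fell. ISG15 is an interferon-induced ubiquitin-like protein, and IRF9 is a part of the factor that carries the interferon signal. In the difference of effects both were lower (-4.29 and -2.50), 2 of 11 where 2.65% of all genes were, and in etoposide ISG15 was lower on the 6K/Rmt arrays (-2.44, adjusted p = 0.019, limma), 1 of 11 where 2.37% of all genes were. In 6K/Rmt cells with etoposide and between the lines in DMSO, 0 of 11 passed.

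NFE2L1 was at 599.6, 593 and 2210.3 (WT DMSO), 678, 885 and 797 (WT etoposide), 1013, 999 and 2566 (6K/Rmt DMSO) and 1503, 1428 and 2549.6 (6K/Rmt etoposide), and the array numbered 3 was the highest in 3 of the 4 groups. POMP, the chaperone of core assembly, was at 9719, 8985 and 3772 with DMSO and 7816, 8598 and 7798 with etoposide in WT cells. Without the arrays numbered 3, PSMG1, likewise a chaperone of core assembly, was lower with etoposide in WT cells (-1.20, adjusted p = 0.00372, limma), 1 of 4 lower among the 13 genes of assembly, where 15% of all genes were lower. In DMSO, 8 of 14 antigen processing genes and 6 of 11 interferon signalling genes were then higher on the 6K/Rmt arrays, where 11.6% of all genes were, and 0 lower. In etoposide, 8 of 14 antigen processing genes were likewise higher, where 19.3% of all genes were, and 0 lower. Of the 11 interferon signalling genes 1 was higher and 2 were lower there, where 20.5% of all genes were lower.

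PSMC3IP, which acts in homologous recombination, lay farther from 0 than any proteasome gene in 4 of the 5 comparisons. It was at 285, 451 and 121 (WT DMSO), 89, 115 and 41.1 (WT etoposide), 77.5, 45.3 and 83 (6K/Rmt DMSO) and 167, 195 and 79.9 (6K/Rmt etoposide). The log2 change was -1.73 in WT cells (adjusted p = 0.107), -1.91 between the lines in DMSO (adjusted p = 0.128) and 2.79 for the difference of effects (adjusted p = 0.058, limma). A second, dimmer probe of PSMC3IP was at 218, 277 and 111 (WT DMSO), 49, 70.5 and 41.9 (WT etoposide), 78.6, 38 and 50.1 (6K/Rmt DMSO) and 109, 131 and 92.2 (6K/Rmt etoposide). In a limma fit over all 14824 probes it passed in the same 3 comparisons, with -1.84 (adjusted p = 0.0256), -1.83 (adjusted p = 0.0385) and 2.89 (adjusted p = 0.011). PSMAL lay between -10.6 and 15.1 and was not tested.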

How the data were processed

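Illumina BeadArray values were taken as deposited: linear intensity per probe, background-subtracted and processed by the authors in Genespring, with the scaling not stated. Between 0.434% and 26.9% of an array's values lay below 0. The other deposited column used, of unit other, held each probe's gene symbol. The non-normalized table's 24 signal and detection columns could be tied to no sample and were left out. Values were quantile-normalised, set to at least 16 and put on the log2 scale. Probes reaching 64 on 3 of 12 arrays were kept, 1 probe a gene. The 4 group means were fitted over all 12 arrays in limma 3.58.1 under R 4.3.3, two-sided, with Benjamini-Hochberg adjustment over 11443 genes. The script was first tested on simulated data for the ING2-WT etoposide effect. It recovered 4.48%, 44.8% and 75.8% of genes changed by 1, 2 and 3 log2 units, so a change of 1 log2 unit was seldom called there. The simulation changed few genes and used the spreads of all genes, with a median residual SD of 0.55 against 0.39 for the proteasome genes. Its rates are therefore not those of the proteasome genes. Members, classes, lists and the leaving out of arrays numbered 3 were chosen with earlier results of these data known. Named genes were the immunoproteasome genes, their counterparts, other activators, ING2-bound members, the 3 highest and 3 lowest values of each comparison and members whose probes differed in sign, and others were chosen after their values were seen. The number of arrays limits the precision. Alternatives covered scaling, floor, filter, probe choice, groups fitted, block, array weights, moderation, threshold and arrays left out.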

Additional observations from a re-analysis of the deposited data

Results flagged for a closer look

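PSMB5 was higher on all 3 etoposide arrays than on all 3 DMSO arrays in ING2-WT cells and lower on all 3 in cells labelled ING2-6K/Rmt. The tested difference of the effects was -0.95 (adjusted p = 0.199, limma), which does not pass the threshold, and 8.16% of all genes had groups that parted in opposite directions in this way. No formal test for a single outlying array was run on these groups of 3 arrays, and fits that leave out 1 array in turn are described below.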

How the results depend on the processing

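Of the counts of called proteasome genes under an alternative, 121 were the same as over all arrays and 18 were not. Over all arrays the counts were 0 for the WT etoposide effect, the 6K/Rmt etoposide effect, the difference of effects, and 6K/Rmt against WT in DMSO and in etoposide. With array weights estimated from the data, which were 0.0828 to 0.43 for the arrays numbered 3, they were 4, 13, 7, 6 and 16 of 40, where 30.6%, 39.7%, 40.2%, 28.8% and 43% of all genes passed, and without the arrays numbered 3 they were 7, 14, 7, 5 and 15. With the replicate number as a replicate block they were 1, 0, 1, 0 and 3. Where these counts were 1, 1 and 3, 10.6%, 15.2% and 17.2% of all genes passed. Same-numbered arrays deviated together with r between -0.04 and 0.64, not over 0.1 in every pair, and 8 of 12 arrays correlated best with their own number, a hint from the data and not from the design. At a threshold of 0.10 on the adjusted p, 1 gene passed for 6K/Rmt against WT in etoposide. Leaving out 1 array in turn gave 0 to 1 for the difference of effects and 0 to 2 for 6K/Rmt against WT in etoposide, and 0 otherwise. The 1 and the 2 came without ING2-WT etoposide replicate 3, and leaving out ING2-WT DMSO replicate 3 or 6K/Rmt DMSO replicate 3 gave 1 in etoposide.

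Directions turned, with a call under the alternative, for 14 values, all of genes with probes low on ING2-WT etoposide replicate 3, an array that each of these settings drops or downweights. Without the arrays numbered 3 these were PSMC4 (0.71) and PSMD3 (0.67) for the WT etoposide effect, PSMB8 (-0.80) and PSMC4 (-1.39) for the difference of effects, and PSMC4 (-1.25), PSMD3 (-0.95) and PSMD13 (-0.90) between the lines in etoposide. With array weights they were PSMB8 (-0.68) for the difference of effects and PSMC4 (-1.17), PSMD3 (-0.84) and PSMD13 (-0.97) between the lines in etoposide. Leaving out 1 array in turn, PSMC4 ranged from -1.48 to 1.80 for the difference of effects, and between the lines in etoposide PSMC4 ranged from -1.24 to 2.04 and PSMD3 from -1.01 to 1.36, each lowest without ING2-WT etoposide replicate 3. Single genes gained a call without a turn 110 times. Called or not, and counting the 14 above, the sign of a proteasome gene or PSMC3IP differed from that over all arrays 312 times. The scaling moved the median of all genes most for the difference of effects, to 0.15 under 75th percentile scaling, where the core median was -0.22 and the immunoproteasome median -0.63. Under cyclic loess the regulatory median turned to -0.03 in WT cells and 0.01 for the difference. Among the dimmest members, PSMB9, PSMD9 and PSMD11 reached values near or under the intensity of 64.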
